A study of Mus musculus with 64 samples.

Results

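The zinc finger transcription factor genes followed here are the mouse genes whose array symbol begins with Zfp, Zkscan, Zscan, Zbtb or Zbed, other than Zfp42. A probe was eligible only when it carried a single gene symbol, and where a gene had several such probes the one with the highest mean embryo signal stood for it. The rule gave 62 member genes, on 83 probes, among 3089 genes with a single-symbol probe and 22575 probes in all. By name they comprised 8 Zbtb genes, 2 Zbed genes, 1 Zkscan gene and 51 other Zfp genes. No Zscan gene was on a single-symbol probe. Every value below is a log2 ratio of embryo RNA to a reference RNA for the chosen probe, so that 1 unit is a doubling. Levels are not compared between single genes, because each probe has its own reference level. Medians and shares over members and other genes are set side by side as ratios to the reference, not as amounts of RNA. Nor are levels compared between the stage and the treatment arrays, whose references carry different names in the labels (Universal Control and Universal Reference).

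The arrays had 2 channels, with embryo total RNA in one and the reference in the other. Of the 64 arrays, 28 covered 7 stages with 4 arrays each: unfertilized egg, fertilized egg, 2-cell, 4-cell and 8-cell embryo, morula and blastocyst. The other 36 arrays covered 12 treatment groups with 3 arrays each, taken at 4 times. The 1-cell embryo was sampled early (21 h) and late (32 h), and so was the 2-cell embryo (43 h and 54 h). Groups named Control covered all 4 times, AM embryos the last 3, AC and DMSO embryos the middle pair, and CHX embryos 43 h alone. What the abbreviations stand for is not spelled out in the labels, which give no dose and do not say from what event the hours count; from general knowledge of embryo culture AM is probably α-amanitin, which blocks RNA polymerase II, AC aphidicolin, an inhibitor of DNA polymerase, CHX cycloheximide, an inhibitor of translation, and DMSO the solvent dimethyl sulfoxide. No strain, allele or number of pooled embryos is stated, and nothing says that the arrays of a group came from separate embryo collections, so the p-values measure the spread between arrays, which may be technical. The direction of the ratios is likely rather than settled: 4 of 4 measured oocyte genes of a list of 14 (Bmp15, Zp2, Btg4 and Kit) exceeded the reference in unfertilized eggs, with lower ratios in blastocysts, when embryo over reference was read as the negative of the deposited value. None of 10 listed trophectoderm genes and 1 of 10 listed cumulus cell genes had a single-symbol probe. That cumulus gene, Pgr, was at 0.13 ± 0.79 (SD, n = 4) in unfertilized eggs. A whole-embryo ratio cannot tell fewer cells holding a transcript from less transcript per cell.

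Before any result, the stage arrays themselves divided in an unlabelled way. An axis was set as unfertilized egg 4 minus the mean of unfertilized eggs 1 to 3, over all probes. Each stage array's deviation from the mean of the stage arrays was correlated with this axis. The correlations ran from -0.551 to -0.062 in 17 arrays and from 0.408 to 0.736 in 11 arrays, and their sign set the subset. The 17-array subset held unfertilized eggs 1 to 3, all fertilized eggs, 2-cell and 4-cell embryos, and morulae 1 and 2. The 11-array subset held unfertilized egg 4, all 8-cell embryos, morulae 3 and 4, and all blastocysts. No label or header records what this division is. It falls between the 4-cell and 8-cell arrays, and it also parts morulae 3 and 4 from the rest of their stage. That it parts unfertilized egg 4 from the other unfertilized eggs follows from how the axis was set. Results on steps that cross it are therefore also given with the subset as a block, a term in the fit that compares stages within subsets.

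C2H2 zinc finger proteins form the largest family of mammalian transcription factors. Each finger folds around a zinc ion and reads a few bases of DNA, and arrays of fingers read longer sites. Many Zfp proteins carry a KRAB domain, which recruits TRIM28 and histone methyltransferase SETDB1 to silence retrotransposons and imprinted regions, a role well known from early embryos. Zbtb proteins carry a BTB domain that pairs proteins and recruits other corepressors, Zkscan proteins add a SCAN dimerization domain, and Zbed proteins carry a BED finger. In the mouse, transcripts stored in the egg are degraded around the 1-cell to 2-cell transition while the embryo's own genome becomes active, with the main wave at the 2-cell stage. Members whose transcript was lower at the 4-cell stage than in fertilized eggs are called maternal here, and those higher at the 4-cell stage embryonic. The names describe that difference alone.

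Promoters are shown for 4 members on which the results turn, 3 maternal (Zbed3, Zfp692, Zbtb24) and 1 embryonic (Zbtb5). Each is the window from 250 bases before to 50 bases after the gene's start, read 5′ to 3′ on the gene's own strand, from RefSeq with build GRCm38.p6, and capitals mark CpG dinucleotides. Zbed3 lies on the plus strand at chr13:95323355-95323654, Zfp692 on the plus strand at chr11:58306819-58307118, Zbtb24 on the plus strand at chr10:41450108-41450407 and Zbtb5 on the minus strand at chr4:45012363-45012662.
Zbed3: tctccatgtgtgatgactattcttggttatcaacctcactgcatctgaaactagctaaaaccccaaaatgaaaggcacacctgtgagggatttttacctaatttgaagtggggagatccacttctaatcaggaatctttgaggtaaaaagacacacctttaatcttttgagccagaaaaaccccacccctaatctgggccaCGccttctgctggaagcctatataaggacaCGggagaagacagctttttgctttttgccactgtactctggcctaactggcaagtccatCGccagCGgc
Zfp692: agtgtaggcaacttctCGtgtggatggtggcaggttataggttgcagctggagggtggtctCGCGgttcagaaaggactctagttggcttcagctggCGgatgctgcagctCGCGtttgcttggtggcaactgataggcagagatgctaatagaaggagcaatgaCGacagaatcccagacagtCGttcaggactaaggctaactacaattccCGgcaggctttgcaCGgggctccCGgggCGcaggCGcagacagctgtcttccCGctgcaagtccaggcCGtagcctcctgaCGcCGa
Zbtb24: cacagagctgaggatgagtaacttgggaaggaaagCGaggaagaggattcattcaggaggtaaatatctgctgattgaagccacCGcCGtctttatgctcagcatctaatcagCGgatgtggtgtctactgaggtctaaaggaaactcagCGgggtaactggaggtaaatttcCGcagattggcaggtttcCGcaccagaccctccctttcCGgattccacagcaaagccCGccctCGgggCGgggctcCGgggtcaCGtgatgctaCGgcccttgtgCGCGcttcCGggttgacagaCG
Zbtb5: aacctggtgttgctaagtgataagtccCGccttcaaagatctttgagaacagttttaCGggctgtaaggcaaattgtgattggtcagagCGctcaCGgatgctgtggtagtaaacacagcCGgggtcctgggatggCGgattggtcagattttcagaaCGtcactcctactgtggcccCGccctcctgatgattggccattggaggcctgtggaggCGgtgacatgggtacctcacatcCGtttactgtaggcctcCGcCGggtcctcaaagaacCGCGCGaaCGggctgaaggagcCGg
The Zbed3 window held 4 CpG dinucleotides, against 17 in Zfp692, 18 in Zbtb24 and 17 in Zbtb5. Zbed3 had 3 windows in the table, and the first listed is shown. Searched on both strands were 5 short motifs, namely TATAAA (the TATA box), CCAAT (the CCAAT box), GGGCGG (a GC box), CACGTG (an E-box) and TAATCC (a paired-type homeodomain site). None of the 5 was in the Zbed3 or Zfp692 window as an exact string. Variants of the motifs were not searched for, and the Zbed3 window does read tatataag before its start. The absence of TATAAA therefore does not show that a TATA box is lacking there. The Zbtb24 window held CCAAT once, GGGCGG 2 times and CACGTG once, and the Zbtb5 window held CCAAT 4 times and GGGCGG once. All 4 Zbtb5 CCAAT matches read ATTGG on the strand shown, with their first base at -171, -110, -58 and -51, counted so that the start base is 1 and the base before it 0. No match overlapped another. A match describes letters in a window and shows no binding.

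Of the 62 members, 46 had a promoter window. Their median GC content was 55.7% and their median CpG count 17, against 62% and 22 in the windows of 2451 other single-symbol genes of the array. GGGCGG was in 45.7% of member windows and 66.2% of those other windows, TATAAA in 15.2% and 7.51%, CCAAT in 39.1% and 37.9%, CACGTG in 8.7% and 10.6%, and TAATCC in 10.9% and 5.59%. Member windows were thus poorer in GC and in the GC box than those of the other genes measured, as a description with no test. Of the 7 maternal members with a window, 3 held CCAAT and 5 held GGGCGG. Of the 4 embryonic members with a window, 4 held CCAAT and 3 held GGGCGG. Over all 27025 genes in the table, CCAAT was in 37.9% of windows and GGGCGG in 35.9%.

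As a group the members stood higher against the reference in eggs than later. The stage medians, shares, highest stages and ranges below carry no block for the array subset. All fertilized egg, 2-cell and 4-cell arrays lie in the 17-array subset, and all 8-cell and blastocyst arrays in the other. Differences between these stages can thus not be told apart from the subset here. The median member was at 0.47 in unfertilized eggs, 0.40 in fertilized eggs, 0.23 at the 2-cell and 0.22 at the 4-cell stage, 0.04 at the 8-cell stage, 0.07 in morulae and 0.01 in blastocysts. The medians of the other 3027 single-symbol genes were 0.14 in unfertilized eggs and -0.11 in blastocysts. Medians and shares of this kind depend on the reference level of each probe and do not compare RNA amounts between members and other genes. In unfertilized eggs 45 of 62 members, 72.6%, were above the reference, against 54% of the other genes, and in blastocysts 32 of 62, 51.6%, against 46.4%. These signs rest on the direction of the ratios: read the other way, the shares above the reference were 27.4% of members (17) and 46% of the other genes in unfertilized eggs, and 48.4% (30) and 53.6% in blastocysts. The highest stage mean lay in unfertilized eggs for 11 members (17.7%, against 16.9% of the other genes), fertilized eggs for 8 (12.9% against 13.6%), 2-cell embryos for 15 (24.2% against 22.2%), 4-cell embryos for 11 (17.7% against 13.9%), 8-cell embryos for 14 (22.6% against 21%), morulae for 0 (0% against 4.82%) and blastocysts for 3 (4.84% against 7.66%). With the direction turned, the 8-cell stage was highest for 19 members and the 2-cell stage for 11. The range between a member's highest and lowest stage mean ran from 0.41 for Zfp54 to 5.47 for Zbed3, with a median of 1.64, against 1.56 for the other genes. The range passed 2 log2 units for 17 members and stayed under 1 for 13. In the treatment arrays the median member was at 0.53 in 32 h controls and 0.16 in 54 h controls while the other genes stood at -0.04 and -0.11.

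**Figure D1:**
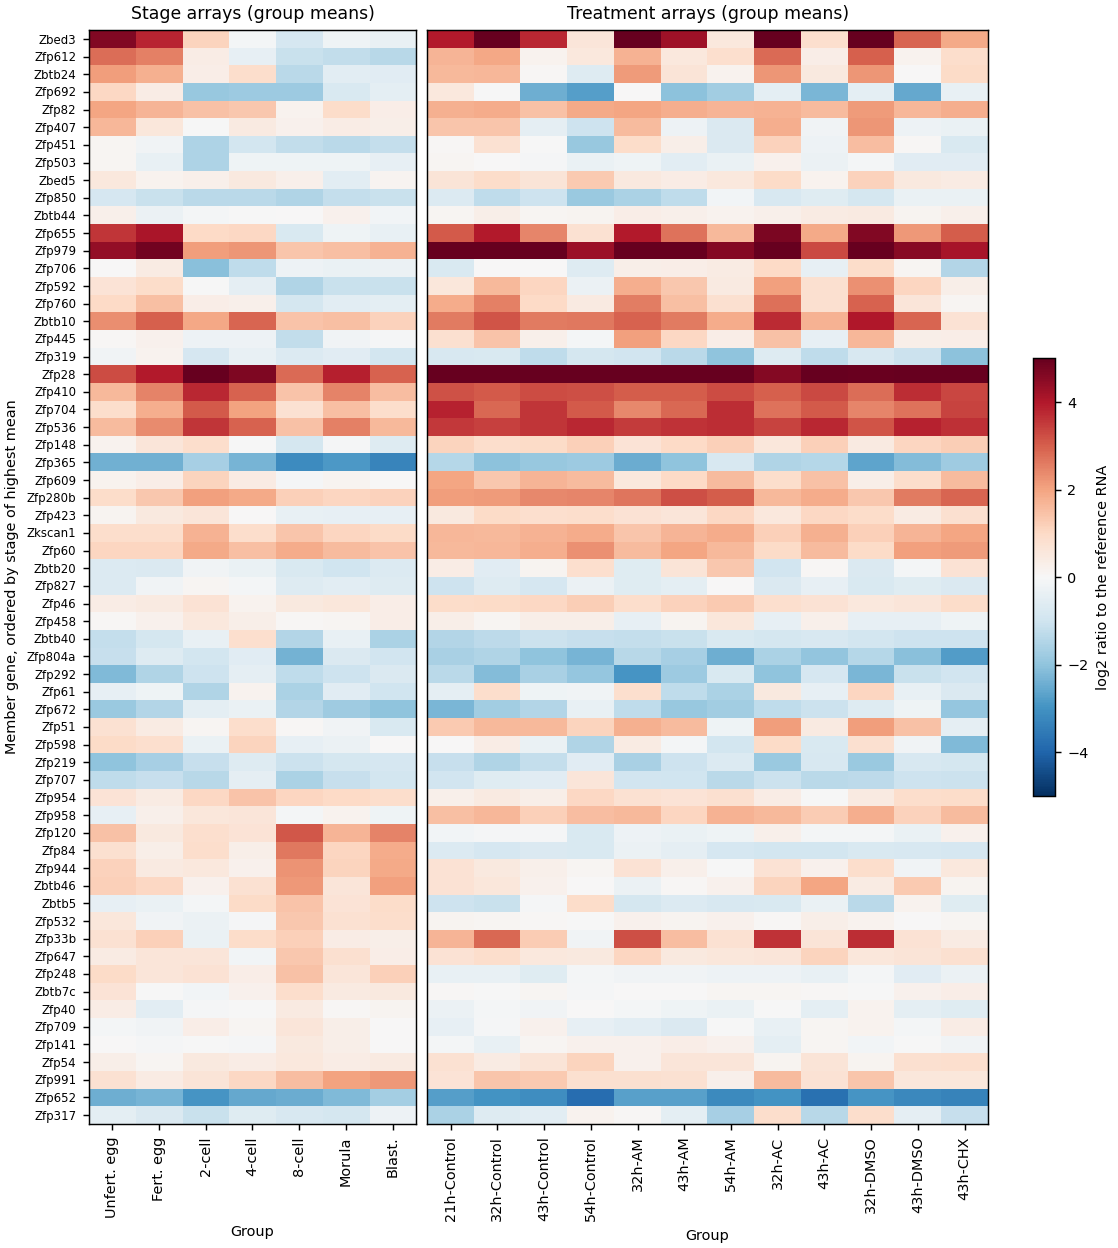
Mean log2 ratio to the reference RNA (colour, limited to 5 in either direction) of the 62 members, one row each, in the 7 stages (left, 4 arrays a group) and the 12 treatment groups (right, 3 arrays a group). Rows are ordered by the stage of highest mean. The 8-cell arrays all lie in the 11-array subset, and the means carry no block for it. 11 members were highest in unfertilized eggs, 15 at the 2-cell stage and 14 at the 8-cell stage, 17.7%, 24.2% and 22.6% of members beside 16.9%, 22.2% and 21% of the other genes.

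Between fertilized eggs and 4-cell embryos 9 members fell, where 10.1% of all 22575 probes fell, and 6 rose, where 11.4% of all probes rose (limma, Benjamini-Hochberg adjusted p under 0.05 over all probes). The 9 maternal members were Zbed3, Zfp655, Zfp612, Zfp979, Zfp692, Zfp706, Zfp592, Zfp760 and Zbtb24. They were 14.5% of members, beside 15.6% of the other single-symbol genes. The embryonic members were Zbtb40, Zbtb5, Zfp672, Zfp219, Zfp954 and Zfp991, 9.68% of members beside 14.2% of the other genes.

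Zbed3, a BED finger protein that in the mouse belongs to the maternal complex under the egg's surface and also binds Axin, showed the widest span. Its ratios were 5.24, 4.77, 4.82 and 3.64 in unfertilized eggs, 4.96, 2.57, 2.78 and 4.94 in fertilized eggs and 0.76, 2.32, 0.66 and 0.69 at the 2-cell stage. At the 4-cell stage they were 0.00, 0.00, -0.04 and -0.33. All eggs lay above all 2-cell and 4-cell arrays. The fall from fertilized egg to 4-cell embryo was 3.91 ± 0.50 on the log2 scale (SE), 15-fold (limma adjusted p = 5.8e-07). Both 0.00 values at the 4-cell stage were deposited as an exact 0, whose meaning is not stated; with such values treated as missing the difference was -4.00 (limma adjusted p = 2.5e-05).

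Zfp655, a KRAB zinc finger protein that interacts with the Vav signalling protein, was at 4.35, 4.17, 3.89 and 3.97 in fertilized eggs. By the 2-cell stage it stood at 0.64, 0.63, 1.57 and 1.13. The groups did not overlap, and the ratio was 8.59-fold lower at the 2-cell stage (limma log2 difference -3.10 ± 0.27, adjusted p = 3.8e-09). A further probe of Zfp655 followed it over the 28 stage arrays (r = 0.93) and fell by 2.12 at the same step (limma adjusted p = 9.5e-06), while the remaining probe differed by 0.10 (limma adjusted p = 0.87).

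Zfp979 was at 5.42, 4.40, 4.44 and 5.02 in fertilized eggs and at 1.22, 2.38, 2.89 and 1.85 at the 2-cell stage. The arrays did not overlap (limma log2 difference -2.73 ± 0.31, adjusted p = 2.1e-07), and the blastocyst mean was still 1.74 ± 0.47 (SD, n = 4). Zfp979 and the embryonic member Zfp991 both lie on chromosome 4 among near copies, and whether their probes tell such copies apart is not stated, so both values are uncertain.

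Zfp612 went from 2.77, 2.28, 2.38 and 2.63 in fertilized eggs to -0.15, 0.56, 0.57 and 0.52 at the 2-cell stage and -0.32, -0.26, -0.60 and -0.39 at the 4-cell stage. It fell by 2.15 ± 0.34 to the 2-cell stage (limma adjusted p = 2.2e-05) and by 2.91 ± 0.34 to the 4-cell stage (limma adjusted p = 1.1e-07), and the step between these stages did not pass. Zbtb24, whose human counterpart is mutated in the ICF immunodeficiency syndrome with loss of DNA methylation at repeats, fell from 2.28, 1.30, 1.49 and 2.04 to 0.31, -0.06, 0.83 and 0.30 (limma log2 difference -1.43 ± 0.29, adjusted p = 0.00056). Its 4-cell arrays, at 0.60, 1.17, 0.64 and 1.04, stood higher than 3 of the 4 2-cell arrays or more, and its fall from fertilized egg to 4-cell embryo held in 4 of the 8 fits that each left out 1 array. It lost its call without fertilized egg 1, fertilized egg 4, 4-cell embryo 1 or 4-cell embryo 3, with differences of -0.75 to -0.84 there.

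Zfp692 and Zfp706 fell and then partly came back. Zfp692, whose human counterpart is a regulator under AMP-activated protein kinase, was at 0.46, 0.38, 0.33 and 0.39 in fertilized eggs, at -1.50, -2.17, -2.52 and -1.40 at the 2-cell stage and at -0.30, -0.53, -0.50 and -0.70 in blastocysts. The fall was 2.29 ± 0.27 (limma adjusted p = 3e-07) and the later rise from the 8-cell stage to the blastocyst 1.30 ± 0.27 (limma adjusted p = 0.0033), with no overlap at either step. Zfp706, which in mouse embryonic stem cells promotes the exit from self-renewal, went from 0.61, 0.47, 0.27 and 0.32 to -2.55, -2.79, -1.66 and -1.34 and was back at -0.13, -0.39, -0.27 and -0.20 at the 8-cell stage. It fell by 2.50 ± 0.29 (limma adjusted p = 2.6e-07) and rose by 1.03 ± 0.29 from the 4-cell to the 8-cell stage (limma adjusted p = 0.0061). With the subset as a block that rise was 1.63 ± 0.39 (limma adjusted p = 0.02).

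Across the whole family, 16 members fell and 7 rose between fertilized eggs and 2-cell embryos, where 12.9% of all probes fell and 14.5% rose. All 9 maternal members were among the 16, including Zfp592, whose human counterpart sits in a chromatin complex with ZMYND8. Both comparisons use the fertilized egg arrays. The other falling members were Zfp33b, Zfp451, Zfp61, Zfp598, Zfp503, Zbtb10 and Zfp319, with log2 differences of -1.01 to -1.52. Further probes did not follow in those of them that had any. They differed by 1.03 for Zbtb10, 0.89 for Zfp503 and -0.11 for Zfp451 (limma adjusted p = 0.061, 0.077 and 0.9). Zfp451 encodes a protein known in human cells as a SUMO ligase and Zfp598 a ubiquitin ligase that marks collided ribosomes, so neither is mainly a DNA-binding factor. In 17 of the 23 called members, 73.9%, the arrays of the groups did not overlap, beside 68% of the 6183 called probes, and 17 were called in every fit that left out 1 array. Within the 17-array subset alone, which holds all arrays of both stages, 22 members were called, 35.5% beside 24.4% of all probes, and 20 of them were among the 23. Fitted on only the arrays of both stages, 10 were called, with no share of all probes at hand for that fit.

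**Figure D2:**
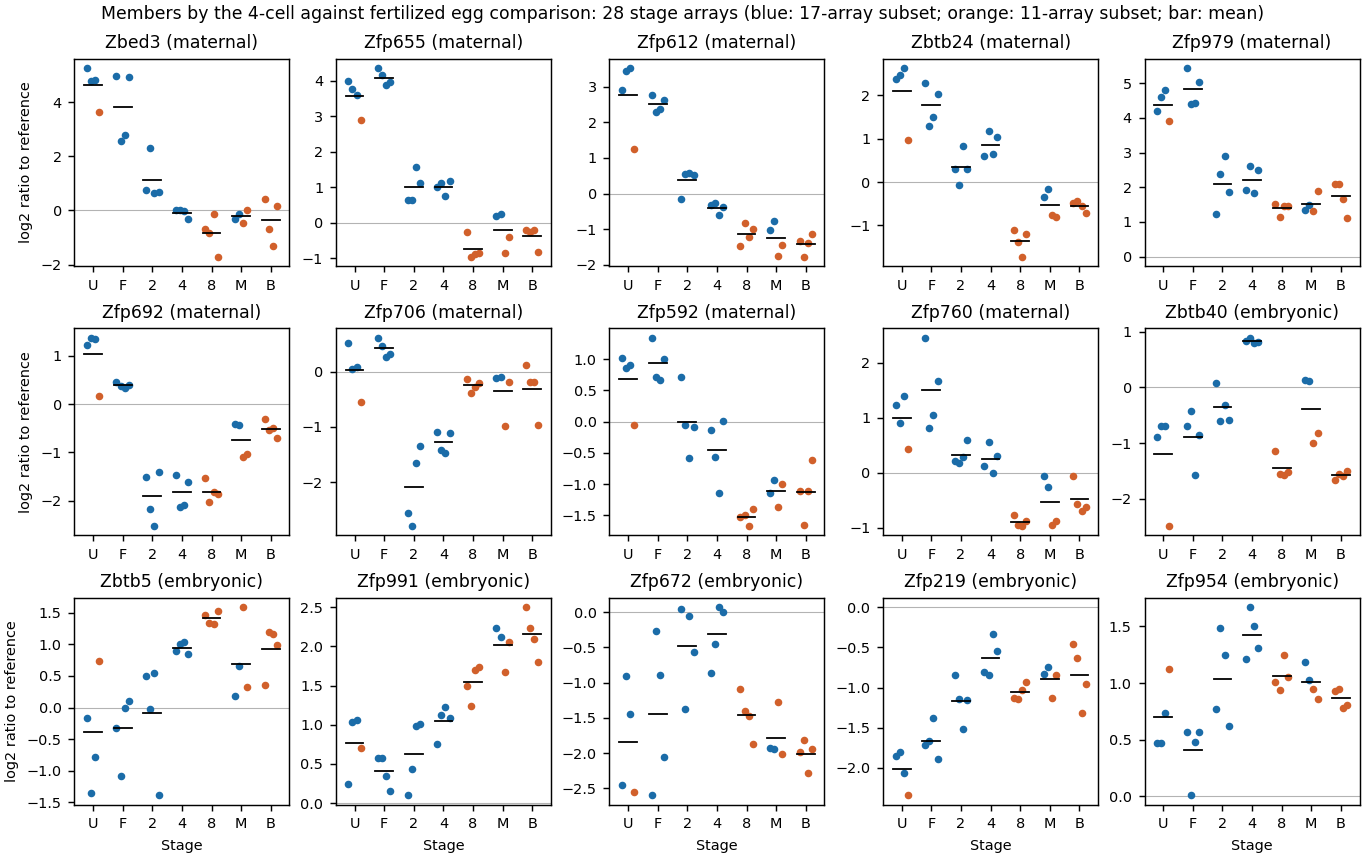
Log2 ratio to the reference on each of the 28 stage arrays for the 9 maternal and 6 embryonic members; stages run from unfertilized egg (U) and fertilized egg (F) through the 2-, 4- and 8-cell embryo to morula (M) and blastocyst (B), colour gives the array subset and the bar the group mean. Maternal members fall between F and 2, by 3.10 for Zfp655, and Zfp692 and Zfp706 return part of the way later.

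The 6 embryonic members rose by 0.64 to 1.72 log2 units between fertilized eggs and 4-cell embryos. Zbtb40 had the largest rise. It was at -0.69, -0.42, -1.57 and -0.86 in fertilized eggs, 0.08, -0.60, -0.32 and -0.59 at the 2-cell stage and 0.84, 0.89, 0.79 and 0.81 at the 4-cell stage, then at -1.15, -1.55, -1.58 and -1.52 at the 8-cell stage. The 4-cell arrays lay above every fertilized egg, 2-cell and 8-cell array. The rise from fertilized eggs was 1.72 ± 0.32 (limma adjusted p = 0.00015) and the fall to the 8-cell stage was 2.28 ± 0.32 (limma adjusted p = 9.5e-06), but with the subset as a block the fall was 0.95 ± 0.30 and did not pass (limma adjusted p = 0.1).

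Zbtb5, whose human counterpart represses the cell cycle inhibitor gene CDKN1A, was at -0.33, -1.08, -0.01 and 0.10 in fertilized eggs and at 0.89, 1.01, 1.03 and 0.85 at the 4-cell stage. The groups did not overlap and the rise was 1.27 ± 0.40 (limma adjusted p = 0.021). The difference was 1.02 (limma adjusted p = 0.095) without fertilized egg 2. Zfp219 rose by 1.03 ± 0.20 (limma adjusted p = 0.00025) and Zfp954 by 1.02 ± 0.20 (limma adjusted p = 0.0003), both without overlap. Zfp219 was at -1.71, -1.67, -1.38 and -1.89 in fertilized eggs and -0.81, -0.84, -0.34 and -0.55 at the 4-cell stage. Zfp672 (1.14 ± 0.41, limma adjusted p = 0.049) and Zfp991 (0.64 ± 0.23, limma adjusted p = 0.048) lay just inside the threshold and were called in 3 and 2 of 8 fits that left out 1 array. Zfp672 lost its call without fertilized egg 1 or 4 or 4-cell embryo 2, 3 or 4, with differences of 0.76 to 1.19. Zfp991 lost it without fertilized egg 1, 3 or 4 or 4-cell embryo 2, 3 or 4, with differences of 0.55 to 0.69. Zfp991 then stood at 2.50, 2.24, 2.09 and 1.80 in blastocysts, its highest stage.

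Zfp28, Zfp410, Zfp536 and Zfp704 rose from the fertilized egg to the 2-cell embryo and were lower at the 8-cell than at the 4-cell stage; this group was picked out after its values were seen. The later step crosses the array subsets, and with the subset as a block none of the 4 passed there (limma adjusted p = 0.47 for Zfp410, 0.71 for Zfp536, 0.8 for Zfp704 and 0.83 for Zfp28). Between the 2-cell and 4-cell stage Zfp410 alone of the 4 was called lower. Zfp410, which activates Chd4, a subunit of the NuRD remodelling complex, was at 2.39, 2.33, 2.80 and 2.45 in fertilized eggs, 3.91, 3.81, 3.63 and 3.71 at the 2-cell stage and 2.74, 3.00, 3.10 and 2.93 at the 4-cell stage. The 2-cell arrays lay above the fertilized egg and 4-cell arrays, with a rise of 1.27 ± 0.26 (limma adjusted p = 0.00061) and a fall of 0.83 ± 0.26 (limma adjusted p = 0.037). Both differences use the same 2-cell arrays. The further probes of Zfp410 differed by 0.42 and 0.90 at the first step and were not called (limma adjusted p = 0.3 and 0.13). Chd4 itself went the other way at the first step, by -1.05 ± 0.32 (limma adjusted p = 0.016).

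Zfp28, a KRAB zinc finger gene, was at 4.30, 2.93, 4.08 and 4.51 in fertilized eggs and at 5.70, 6.17, 5.48 and 4.68 at the 2-cell stage, with no overlap (limma log2 difference 1.56 ± 0.42, adjusted p = 0.0065). Zfp536, known as a repressor of neuronal differentiation, was at 2.57, 2.07, 2.22 and 2.59 and then at 3.68, 4.23, 3.63 and 2.82, again with no overlap (limma log2 difference 1.23 ± 0.32, adjusted p = 0.0045). Over the 28 stage arrays Zfp536 correlated with Zfp28 at r = 0.95 and with Zfp410 at r = 0.94, arrays that share stage and subset. Over the 36 treatment arrays the same pairs had r = 0.60 and 0.86. Zfp28 and Zfp410 had r = 0.93 over the stage and 0.59 over the treatment arrays. Zfp704 correlated with Zfp536, Zfp28 and Zfp410 at r = 0.87, 0.86 and 0.80 over the stage arrays. Over the treatment arrays these were only 0.16, 0.22 and 0.09. From the fertilized egg to the 2-cell embryo Zfp704 differed by 1.22 ± 0.45 (limma adjusted p = 0.046), with overlap. It kept its call in 1 of 8 fits that left out 1 array, that without 2-cell embryo 4. Zfp60, Zkscan1 and Zfp954 were the other members that rose at this step, by 0.84, 0.88 and 0.62. The further Zkscan1 probe differed by -0.65 there (limma adjusted p = 0.16).

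Between the 2-cell and 4-cell stage 8 members rose, where 9.58% of all probes rose, and 2 fell, where 4.04% fell. Zfp61 (1.67 ± 0.47, limma adjusted p = 0.017), Zfp598 (1.44 ± 0.26, limma adjusted p = 0.00045), Zfp503 (1.33 ± 0.31, limma adjusted p = 0.0051) and Zfp33b (1.26 ± 0.28, limma adjusted p = 0.0035) had all fallen at the step before, so that their 2-cell level was a low point. The fall and the rise use the same 2-cell arrays, so the calls are not independent. Zfp598 was at 0.94, 0.81, 0.77 and 0.90 in fertilized eggs, -0.82, -1.10, 0.47 and 0.09 at the 2-cell stage and 1.09, 0.99, 1.24 and 1.07 at the 4-cell stage. Both outer groups lay wholly above the 2-cell arrays. Zfp33b was at 1.77, 0.59, 0.96 and 1.44, then -0.98, -0.10, -0.02 and -0.23, then 0.94, 1.18, 0.51 and 1.08, in the same order. Zbtb40, Zbtb10, Zfp707 and Zfp51 were the other members that rose, by 0.78 to 1.19, and Zfp148 and Zfp410 fell by 0.88 and 0.83. Leaving out 2-cell embryo 1, 2-cell embryo 2, 4-cell embryo 2 or 4-cell embryo 4 left 6 called members in place of 10.

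Between the 4-cell and 8-cell stage 20 members were lower and 7 higher, where 20.2% of all probes were lower and 20.9% higher. The largest differences downward were in Zbtb40, Zbtb24 (-2.21 ± 0.29, limma adjusted p = 4.4e-06), Zfp28 (-1.83 ± 0.42), Zfp804a (-1.82 ± 0.30), Zfp655 (-1.76 ± 0.27), Zfp61 (-1.74 ± 0.47), Zfp598 (-1.53 ± 0.26) and Zfp410 (-1.50 ± 0.26). Upward they were in Zfp120 (2.42 ± 0.44), Zfp84 (2.32 ± 0.42), Zfp944 (2.02 ± 0.42), Zfp647 (1.50 ± 0.31), Zfp532 (1.39 ± 0.36), Zfp248 (1.16 ± 0.29) and Zfp706. All 4-cell arrays belong to the 17-array subset and all 8-cell arrays to the other, so here stage and subset can be separated only through the unfertilized eggs and morulae, which have arrays in both.

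Zfp84 shows what this means for a single gene. It was at 0.31, 0.11, 0.44 and 0.38 at the 4-cell stage and at 2.53, 2.60, 2.94 and 2.43 at the 8-cell stage. Unfertilized egg 4 stood at 2.07 beside 0.38, 0.55 and 0.21 in the other unfertilized eggs, and morulae 3 and 4 at 2.37 and 1.94 beside 0.01 and -0.00 in morulae 1 and 2. Every array of the 11-array subset stood at 1.42 or above and every array of the other at 1.41 or below, whatever the stage.

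The same held for Zfp120, at 2.96 in unfertilized egg 4 and 0.93, 1.27 and 0.73 in the others, and for Zfp944, at 2.31 beside 0.66, 0.71 and 1.00. Of the 7 members higher at the 8-cell stage, 6 were also higher in unfertilized egg 4 than in every other unfertilized egg and higher in morulae 3 and 4 than in morulae 1 and 2; the exception was Zfp706. Of the 20 lower members, 12 moved the same way in both of those within-stage comparisons. With the subset as a block 2 of the 27 members stayed past the threshold, Zbtb24 (-1.26 ± 0.34, limma adjusted p = 0.046) and Zfp706, where 2.56% of all probes passed. The differences of Zfp84 and Zfp120 were then 0.36 ± 0.30 (limma adjusted p = 0.73) and 0.60 ± 0.41 (limma adjusted p = 0.64). Among the members named as most lower, Zfp28 differed by -0.43 ± 0.49, Zfp804a by -0.78 ± 0.32, Zfp655 by -0.89 ± 0.31, Zfp61 by -0.62 ± 0.62, Zfp598 by -1.19 ± 0.36 and Zfp410 by -0.52 ± 0.27 (limma adjusted p = 0.089 to 0.83). Of those higher, Zfp944 differed by 0.21 ± 0.37, Zfp647 by 0.82 ± 0.42, Zfp532 by 0.33 ± 0.44 and Zfp248 by 0.07 ± 0.31 (limma adjusted p = 0.45 to 0.97).

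**Figure D3:**
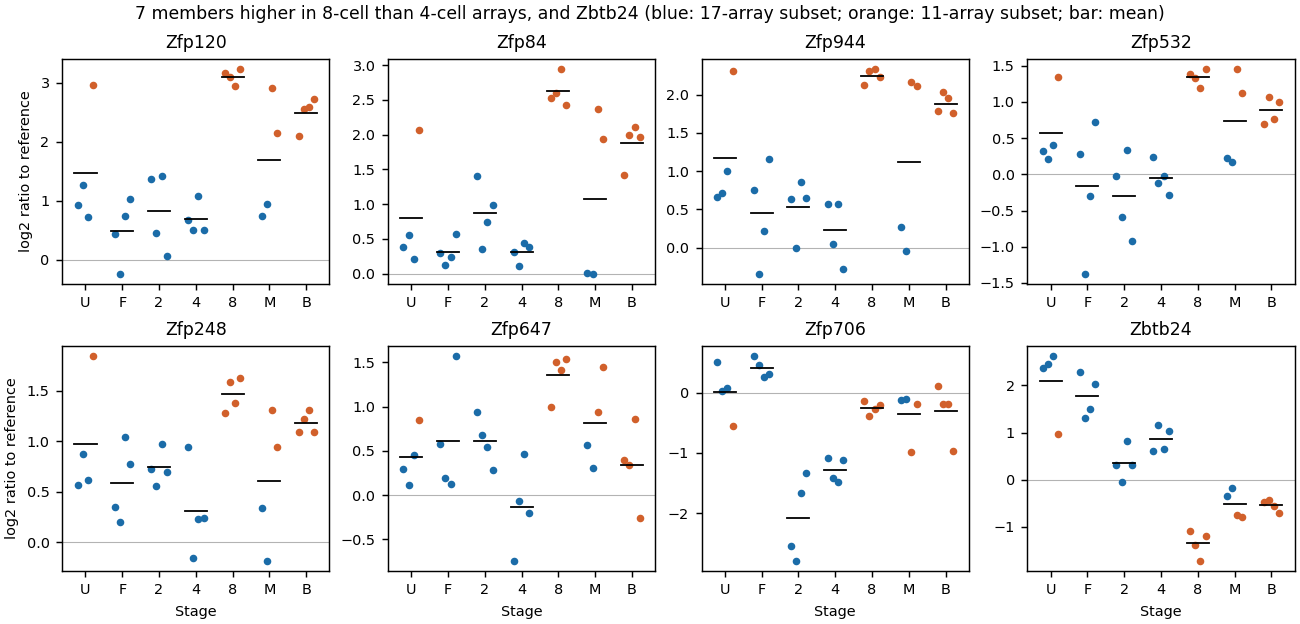
Log2 ratio to the reference on each of the 28 stage arrays for the 7 members higher at the 8-cell than at the 4-cell stage and for Zbtb24, with the 17-array subset in blue, the 11-array subset in orange and bars at group means. For Zfp84 unfertilized egg 4 (2.07) and morulae 3 and 4 (2.37 and 1.94) lie with the 8-cell arrays, while Zfp706 does not follow the colours.

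The later stages brought few differences. From the 8-cell stage to the morula 4 members rose, where 3.24% of all probes rose, and 1 fell, where 1.64% fell. Zfp804a, whose human counterpart is linked to schizophrenia, went from -2.22, -2.52, -2.51 and -2.28 to -0.25, -0.54, -1.30 and -0.85 (limma log2 difference 1.65 ± 0.30, adjusted p = 0.012). Zfp692, Zfp445 and Zfp410 rose by 1.07, 1.06 and 1.03, and Zfp84 fell by 1.55. Zfp445 is known as a KRAB zinc finger protein that keeps imprints beside Zfp57. None of these 5 kept its call with the subset as a block (limma adjusted p = 0.21 to 0.6) or within the 11-array subset (limma adjusted p = 0.084 to 0.31). The count of 5 fell to 0 or 1 without 8-cell embryo 2, 3 or 4 or morula 1 or 2, and rose to 13 without morula 3 or morula 4.

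From the 8-cell stage to the blastocyst, 3 members rose, where 3.33% of all probes rose, and 1 fell, where 0.354% fell. Zfp804a reached -0.75, -0.89, -0.81 and -1.45 in blastocysts, above every 8-cell array (limma log2 difference 1.41 ± 0.30, adjusted p = 0.0042), and Zfp692 rose as given above. Both were called in every fit that left out 1 array. Zfp445 (1.16 ± 0.31, limma adjusted p = 0.032) and Zfp51 (-0.84 ± 0.23, limma adjusted p = 0.033) were not: they kept their calls in 1 and 0 of 8 such fits, and the count fell from 4 to 2 without 8-cell embryo 2, 3 or 4 or any 1 of the 4 blastocyst arrays. All arrays of both stages lie in the 11-array subset, and fitted there alone 14 members passed, 22.6% beside 16.8% of all probes. Among them Zfp652 rose from -2.40, -2.54, -2.56 and -2.44 to -1.67, -1.59, -1.75 and -1.86 (0.77 ± 0.11, limma adjusted p = 0.001), with no overlap, Zbtb24 rose by 0.80 ± 0.15 (limma adjusted p = 0.0047) and Zfp33b fell by 0.91 ± 0.16 (limma adjusted p = 0.0035).

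No member passed between morula and blastocyst, where 1.33% of all probes passed and 8 members had an unadjusted p under 0.05 (limma). Without morula 3, morula 4 or blastocyst 4, 3, 2 and 1 members passed. Fertilization itself brought no call either: 0 members passed between unfertilized and fertilized eggs, where 0.766% of all probes passed and 11 members had an unadjusted p under 0.05 (limma). With the subset as a block Zfp407 (-1.24 ± 0.31, limma adjusted p = 0.038) and Zfp692 (-0.85 ± 0.22, limma adjusted p = 0.046) were lower in fertilized eggs. Zfp692 was at 1.22, 1.37 and 1.35 in unfertilized eggs 1 to 3, above all fertilized eggs, and at 0.16 in unfertilized egg 4, below them.

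The treatment arrays asked how these transcripts behave from the 1-cell to the late 2-cell stage and what the inhibitors change. They had no part in the test that set the maternal and embryonic classes. They did count, together with the stage arrays, in the mean that chose the probe of a gene with several. Nothing passed among members from 21 to 32 h, where 0.315% of all probes passed and 4 members had an unadjusted p under 0.05 (limma). From 32 to 43 h, across the first cleavage, 6 members fell, where 3.2% of all probes fell, and 0 rose, where 0.399% rose. From 43 to 54 h Zfp707 rose and Zfp451 fell, where 2.31% of all probes rose and 1.78% fell. Over the whole span from 32 to 54 h, a comparison added after the data had been seen, 14 members fell and 5 rose, where 11.6% of all probes fell and 11.3% rose.

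The 6 members that fell between 32 and 43 h were Zfp692, Zfp407, Zfp612, Zbtb24, Zfp760 and Zfp445, and 4 of these are maternal members. Zfp692 was at 0.12, -0.05 and -0.09 in 32 h controls, at -2.30, -2.51 and -2.50 in 43 h controls and at -2.72, -3.05 and -2.47 in 54 h controls. The step between 32 and 43 h was 5.38-fold down (limma log2 difference -2.43 ± 0.29, adjusted p = 6.5e-06) with no overlap, out of -2.74 ± 0.29 up to 54 h. Zbtb24 went from 1.62, 1.76 and 1.55 through 0.03, -0.11 and 0.24 to -0.34, -1.02 and -0.58 over the same times (-1.59 ± 0.32 at the first step, limma adjusted p = 0.0029).

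In Zbed3 neither single step passed, and the whole span did. Controls of 32 h stood at 5.51, 5.72 and 5.30, those of 43 h at 4.91, 3.55 and 2.82, and those of 54 h at 0.93, 0.30 and 0.54, 30.3-fold below 32 h (limma log2 difference -4.92 ± 1.18, adjusted p = 0.0031). Zfp655 was at 3.71, 4.26 and 3.87, then 2.22, 2.55 and 2.57, then 0.61, 0.86 and 0.86 (-3.18 ± 0.59 over the whole span, limma adjusted p = 0.00028). Its single steps did not pass either.

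Of the 9 maternal members, 9 had a lower mean at 43 h than at 32 h and 4 were called, 44.4%, beside 12.5% of the 473 other single-symbol genes that were maternal by the same comparison. Their median difference was -1.50, against -0.61 for those other genes. Over 32 to 54 h 7 of the 9 were called lower, 77.8% beside 64.3%, with medians of -2.07 and -1.41. Of the 6 embryonic members 2 were called higher over 32 to 54 h, Zbtb5 and Zfp219, 33.3% beside 35.2% of 429 other embryonic genes. Zbtb5 went from -1.40, -1.02 and -0.92 at 32 h to 0.70, 1.08 and 0.92 at 54 h (2.01 ± 0.43, limma adjusted p = 0.0012).

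AM embryos at 32 h and at 43 h showed no member past the threshold against controls, where 0% of all probes passed at either time, and 2 and 3 members had an unadjusted p under 0.05 (limma). At 54 h AM was accompanied by 4 lower and 2 higher members, where 4.34% of all probes were lower and 2.12% higher. Zfp707 was the clearest. It was at 0.85, 0.41 and 0.58 in 54 h controls and at -1.02, -1.26 and -1.71 in 54 h AM embryos, 3.85-fold lower with no overlap (limma log2 difference -1.94 ± 0.27, adjusted p = 4.2e-05), and it was called in all 6 fits that left out 1 array. In the controls Zfp707 had risen by 1.19 ± 0.27 between 43 and 54 h (limma adjusted p = 0.011), from -0.51, -0.17 and -1.05, whereas the AM arrays at 43 h stood at -0.42, -1.06 and -1.46. That rise was 0.96 (limma adjusted p = 0.085) without 43h-Control replicate 3 and 1.07 (limma adjusted p = 0.052) without 54h-Control replicate 1.

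Zbtb5 was next, at 0.70, 1.08 and 0.92 in 54 h controls and -0.81, -1.80 and 0.22 in AM embryos (limma log2 difference -1.69 ± 0.43, adjusted p = 0.015). Zfp61 was at -0.18, 0.19 and -0.54 in controls and -1.14, -2.42 and -1.23 in AM embryos (-1.42 ± 0.37, limma adjusted p = 0.018). Zfp319 was at -1.02, -0.63 and -0.96 and at -2.06, -2.12 and -1.84 (-1.14 ± 0.31, limma adjusted p = 0.023). None of these 3 pairs of groups overlapped, and each was called in 3 of 6 fits that left out 1 array.

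Zfp850 was higher in AM embryos, at -0.41, 0.05 and -0.03 beside -1.06, -2.25 and -2.23 (1.72 ± 0.53, limma adjusted p = 0.048), as was Zfp692, at -2.56, -1.56 and -1.07 beside -2.72, -3.05 and -2.47 (1.01 ± 0.29, limma adjusted p = 0.03). The Zfp692 arrays overlapped, and these calls held in 1 and 2 of 6 fits that left out 1 array. Without 54h-Control replicate 2 or 54h-AM replicate 2 only 1 of the 6 members was called, and without 54h-Control replicate 3 there were 3. The AM difference at 54 h departed from that at 43 h in 0 members, where 0.0797% of all probes passed and 5 members had an unadjusted p under 0.05 (limma). It departed from that at 32 h, a comparison added after the data had been seen, in Zfp707 alone (-1.57 ± 0.38, limma adjusted p = 0.032), where 1.13% of all probes were lower and 0.341% higher. That call did not hold without any 1 of the 3 32 h controls, any 1 of the 3 54 h controls, 32h-AM replicate 1, 32h-AM replicate 3 or 54h-AM replicate 3, with differences of -1.38 to -1.67 there.

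In AM embryos the fall went on in 8 of the 9 maternal members, while the mean of Zfp706 did not fall. At 54 h 8 of the 9 stood higher with AM than in controls, with a median difference of 0.74. Of 473 other maternal genes 399 stood higher, with a median of 0.56. The AM difference lay higher at 54 h than at 32 h in 9 of 9 (median 0.50) and in 390 of those 473 (median 0.55). No maternal member was called in that last contrast. Between 32 and 54 h under AM 16 members were lower and 5 higher, where 9.39% of all probes were lower and 9.6% higher. Of the 9 maternal members, 7 were called lower, 77.8% beside 40% of other maternal genes, with medians of -1.76 and -0.93. Zbed3 went from 5.62, 4.33 and 5.60 to 0.85, 1.99 and -1.30 (limma log2 difference -4.67 ± 1.18, adjusted p = 0.0067), and to -3.77 without 54h-AM replicate 3 (limma adjusted p = 0.057). Zfp655 went from 4.32, 3.83 and 3.79 to 1.26, 1.90 and 1.72 (-2.35 ± 0.59, limma adjusted p = 0.0069). Zbtb24 went from 2.38, 2.17 and 1.82 to -0.08, -0.04 and 0.61 (-1.96 ± 0.32, limma adjusted p = 0.00013).

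Other members fell with them: Zfp33b by 2.47 ± 0.50, Zfp61 by 2.43 ± 0.37, Zfp407 by 2.31 ± 0.39 and Zfp51 by 1.98 ± 0.57. Controls and AM embryos use different arrays here, and 13 members were called lower in both, out of 14 in controls and 16 with AM, shares of 92.9% and 81.2%. Of the other single-symbol genes 297 were lower in both, 56.9% of those lower in controls and 77.3% of those lower with AM. The 2 called higher in both, Zbtb20 and Zfp219, were 40% of the 5 in each, beside 32.9% and 38.2% for the other genes. Zbtb20, known as a repressor of Afp in mouse liver, went from -1.30, -0.99 and 0.47 to 1.41, 0.68 and 2.00 under AM (1.97 ± 0.48, limma adjusted p = 0.0048), and from -0.55, -0.66 and -0.54 to 0.56, 0.56 and 1.37 in controls (1.41 ± 0.48, limma adjusted p = 0.032). The control difference had the other sign, -0.43, on the mean of the gene's probes. Zfp292 rose under AM by 2.20 ± 0.66 (limma adjusted p = 0.021), and was called in 3 of 6 fits that left out 1 array.

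**Figure D4:**
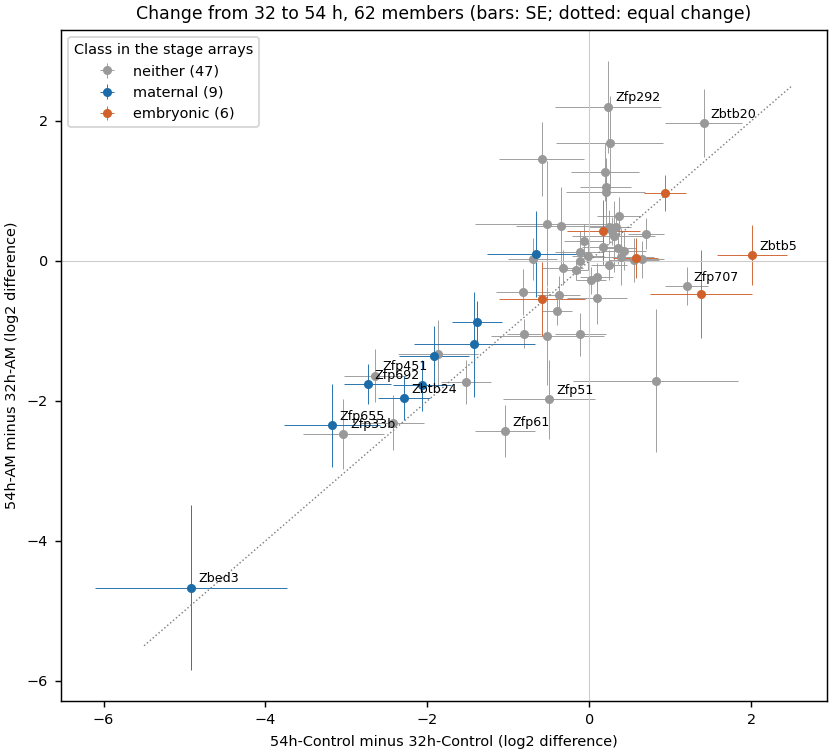
Log2 change of each of the 62 members from 32 to 54 h in controls (horizontal) and in AM embryos (vertical), with SE bars, coloured by class in the stage arrays; the dotted line marks equal change. Most maternal members, such as Zbed3 (-4.92 and -4.67), lie low on both axes, while Zbtb5 (2.01) lies right of the line.

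**Figure D5:**
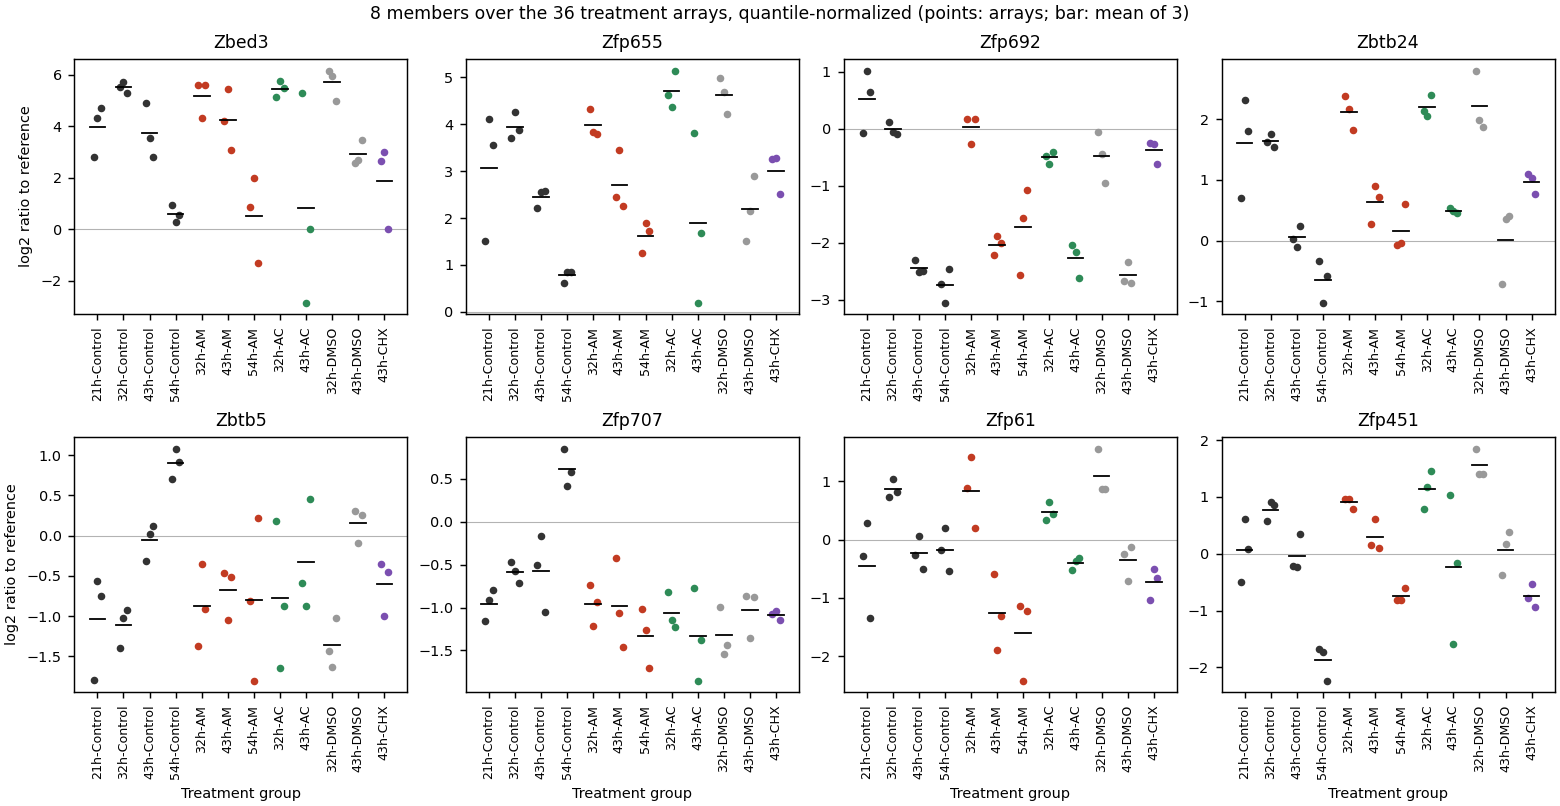
Log2 ratio to the reference on each of the 36 treatment arrays for 8 members, with bars at group means and colour by treatment. Zfp707 is above 0 in the 3 54 h control arrays (0.41 to 0.85), and Zfp692 in CHX embryos (-0.25 to -0.61) stays near the 32 h controls.

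Nothing passed in the members for AC against DMSO at 32 h, where 0% of all probes passed and 1 member had an unadjusted p under 0.05 (limma), or at 43 h, where 0.204% of all probes passed and 4 members had such a p (limma). At 43 h the AC arrays disagreed among themselves: Zbed3 was at 5.31, -2.84 and 0.02, Zfp655 at 3.82, 0.20 and 1.68 and Zfp598 at 1.03, -2.46 and -0.89. Without 43h-AC replicate 1, the highest of the 3 for these genes, 7 members passed in place of 0. The share of all probes in that fit is not given here, so the count is not a result about the members. For DMSO against controls no member passed at 32 h, where 0.656% of all probes passed and 6 members had an unadjusted p under 0.05 (limma). None passed at 43 h, where 0% of all probes passed and 3 members had such a p (limma). A lack of calls with 3 arrays a group does not show equal levels. At 32 h 8 of the 9 maternal members had a higher mean with DMSO, with a median difference of 0.58. Of the 473 other maternal genes 430 were higher, with a median of 0.46.

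CHX embryos at 43 h differed from controls in 3 members, 1 higher, where 0.992% of all probes were higher, and 2 lower, where 1.26% were lower. Zfp692 was at -0.25, -0.27 and -0.61 in CHX embryos and at -2.30, -2.51 and -2.50 in controls of the same time, 4.17-fold higher with no overlap (limma log2 difference 2.06 ± 0.29, adjusted p = 0.00024), and was called in all 6 fits that left out 1 array. Its CHX values lay close below those of the 32 h controls (0.12, -0.05 and -0.09), while at 43 h AM (-2.22, -1.88 and -2.01), AC (-2.04, -2.16 and -2.62) and DMSO (-2.68, -2.33 and -2.71) embryos stood with the controls. No other maternal member passed with CHX (limma). Zbtb24 was at 1.09, 1.04 and 0.76 beside 0.03, -0.11 and 0.24, and Zfp760 at 0.14, 0.09 and 0.10 beside 1.12, 0.87 and 1.03. Zfp598 was lower under CHX, at -1.74, -2.31 and -2.55 beside -0.85, -0.04 and -0.14 (-1.86 ± 0.49, limma adjusted p = 0.04), and Zfp804a at -2.70, -2.79 and -2.87 beside -1.97, -2.00 and -2.03 (-0.79 ± 0.21, limma adjusted p = 0.041). Both pairs were free of overlap, but neither call held in any of the 6 fits that left out 1 array, with differences of -1.69 to -2.11 and -0.75 to -0.83 there. The count of 3 was 1 without 43h-Control replicate 1, 2 or 3 or 43h-CHX replicate 2 or 3.

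The corepressor genes that these proteins work through were followed on lists taken up with earlier results known. Of 16 listed genes of the KRAB and TRIM28 corepressor machinery 11 were measured. Between fertilized eggs and 2-cell embryos 1 rose and 2 fell, where 14.5% of all probes rose and 12.9% fell. Cbx1, a heterochromatin protein, fell by 2.27 ± 0.30 (limma adjusted p = 1.8e-06) and Chd4 by 1.05, while Chd3 rose by 1.38 ± 0.33 (limma adjusted p = 0.0024). Between the 4-cell and 8-cell stage 1 was higher and 4 lower, where 20.9% of all probes were higher and 20.2% lower. That step crosses the array subsets. Trim28, the scaffold that KRAB domains bind, fell by 1.01 ± 0.23 at fertilization (limma adjusted p = 0.034), and by 0.99 ± 0.23 with the array subset as a block (limma adjusted p = 0.026). From 32 to 54 h, Cbx1 fell by 3.70 ± 0.48 in controls (limma adjusted p = 3.9e-06) and by 2.03 ± 0.48 under AM (limma adjusted p = 0.0042). With CHX at 43 h Chd4 was higher by 1.44 ± 0.27 (limma adjusted p = 0.0043) and Cbx1 lower by 2.06 ± 0.48 (limma adjusted p = 0.02). Of 17 listed BTB corepressor genes 4 were measured. Bcor, which BTB domains recruit, rose by 1.62 ± 0.38 at the 2-cell stage (limma adjusted p = 0.0022), where 14.5% of all probes rose. Mbd3 rose by 1.89 ± 0.30 between the 2-cell and 4-cell stage (limma adjusted p = 0.00016), where 9.58% did. No other of the 4 was called at these steps. From the 4-cell to the 8-cell stage, again across the array subsets, 2 of the 4 were lower and 0 higher. Mean ratios there went from 0.28 to -1.83 for Bcor and from 0.12 to -1.58 for Mbd3.

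A single probe carries most of these values, and probes of one gene often differed. Of the members 47 had 1 probe and 15 had several. The 21 further probes had a median correlation of 0.05 with the chosen probe over the 28 stage arrays, beside 0.12 for 1152 further probes of the other genes. 3 were above 0.5 and 10 below 0. For Zfp148, a GC-box binding factor, the chosen probe fell by 0.85 between the 4-cell and 8-cell stage and a further probe rose by 2.43 (limma adjusted p = 0.0009), with r = -0.84 between them. With the subset as a block these differences were -0.11 ± 0.37 (limma adjusted p = 0.96) and 0.45 ± 0.60 (limma adjusted p = 0.87). For Zkscan1 the chosen probe differed by 0.49 at that step and its further probe by -3.50 (limma adjusted p = 4.7e-08), or by 0.11 and -2.21 (limma adjusted p = 0.97 and 0.00036) with the block. For Zfp120 the chosen probe differed by 2.42 between these stages and its further probe by -0.68 (limma adjusted p = 0.22). The correlation between them over the stage arrays was -0.75. Zfp445 was not called with AM at 54 h on its chosen probe (0.43, limma adjusted p = 0.5), but its further probe was higher by 1.24 (limma adjusted p = 0.0023).

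Of the 62 members, 37 were called at a step between consecutive stages (59.7%, beside 65.6% of the other single-symbol genes), 26 in a treatment comparison (41.9% beside 42.3%), 45 in either (72.6% beside 76%) and 17 in neither (27.4% beside 24%). Those 17 included Zfp652, at a mean of -2.94 ± 0.91 (SD, n = 4) at the 2-cell stage and -1.72 ± 0.12 in blastocysts, and Zfp365, at -1.66 ± 1.21 and -3.31 ± 0.52. Zfp423, a partner of Ebf factors in fat cells, had stage means between 0.60 ± 0.64 at the 2-cell stage and -0.43 ± 0.21 in blastocysts and passed no comparison. Of 3968 member values 1 was at the upper limit of the deposited scale, for Zfp28, and 47 were an exact 0, of which 25 belonged to Zbtb46, 12 to Zfp458, 5 to Zbed3, 4 to Zfp709 and 1 to Zfp317. The levels of Zbtb46, known from dendritic cells, and of Zfp458 are therefore uncertain. On the chromosomes 10 members lay on chromosome 7, 16.1% beside 5.95% of the other genes, and 6 on chromosome 17, 9.68% beside 4.23%.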

How the data were processed

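The deposited table holds 1 value per probe and array, which the limits of 2 in either direction and the oocyte genes mark as log10 ratios of reference to embryo signal made by the authors. How the authors corrected background and normalized the arrays is not given in the sources used here. Multiplication by 3.3219, with the sign turned, gave log2 ratios of embryo to reference, limited at 6.64. The 28 stage arrays, whose medians spanned 0.24, were used as deposited. The 36 treatment arrays, whose medians spanned 0.53, were quantile-normalized. Both sets were fitted apart, since their reference RNAs have different names, with limma 3.58.1 in R 4.3.3 (lmFit, contrasts, eBayes) over all 22575 probes, Benjamini-Hochberg adjusted p under 0.05. Of the probes 4262 carried 1 symbol, 6822 several and 11491 none. All 62 members matched a current gene by Entrez identifier. With 4 or 3 arrays a group, the number of arrays limits the precision.

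Named genes were, in each comparison, up to 8 per direction of the largest differences past the threshold, the 12 of widest stage range and members with listed roles. Zfp652 was chosen after its values were seen. Zfp365 and Zfp423 also fall outside this rule and stand as examples of members without a call. Zbtb46, Zfp458, Zfp709 and Zfp317 are named only for their exact 0 values. The members and lists were chosen with earlier results of these data known. Alternatives were quantile normalization or none, median centring, exact 0 values as missing, the mean of a gene's probes, a replicate block, the array subset as a block or alone, only the arrays compared, and leaving out each array. The comparison of 54 h with 32 h controls and the AM difference at 54 h against that at 32 h were chosen after seeing the data. The fits were tested on simulated data.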

Additional observations from a re-analysis of the deposited data

Results flagged for a closer look

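The 45 named genes at the 7 stages gave 315 groups of 4 arrays. In 23 of them, 7.3%, the lowest or highest array lay far from the other 3. The measure was Dixon's 95% criterion for the gap over the group's range. For independent values it flags about 1 in 20 groups. The named genes were mostly picked by differences in these arrays and share arrays, so the shares were not compared. Unfertilized egg 4, the only egg of the 11-array subset, gave 6 of them: Zbtb24 at 0.96, Zbtb40 at -2.49, Zfp148 at -0.42, Zfp592 at -0.06, Zfp60 at 1.85 and Zfp692 at 0.16. Fertilized egg 2 gave 3, Zfp54 at -0.58, Zfp850 at -0.15 and Zfp954 at 0.01.

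The remaining arrays were spread over stages. Zbed3 stood at 2.32 in 2-cell embryo 2 and at -0.33 in 4-cell embryo 4, Zfp612 at -0.15 in 2-cell embryo 1, Zbtb20 at 1.27 in 4-cell embryo 3 and Zfp33b at 1.61 in unfertilized egg 3. At the 8-cell stage Zbtb40 (-1.15) and Zfp655 (-0.27) stood apart in array 1, Zfp979 (1.14) in array 2 and Zfp407 (0.40) in array 4. In morulae these were Zfp672 (-1.28) and Zfp706 (-0.99) in array 3 and Zfp54 (0.75) in array 4, and in blastocyst 4 Zfp536 (1.95) and Zfp655 (-0.84).

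The AM difference of Zfp707 at 54 h departed from that at 32 h by -1.57 in the test of the difference itself (limma adjusted p = 0.032).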

How the results depend on the processing

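With the array subset as a block 2 members were called between unfertilized and fertilized eggs in place of 0, 2 in place of 27 between the 4-cell and 8-cell stage, 0 in place of 5 from the 8-cell stage to the morula and 7 in place of 4 to the blastocyst; within the 11-array subset these last counts were 0 and 14, and 1 from morula to blastocyst in place of 0. Fitted on only the arrays compared, counts were 10 (2-cell against fertilized egg), 3 (4-cell against 2-cell), 0 (morula against 8-cell), 17 (blastocyst against 8-cell), 10 (54 h against 43 h controls), 2 (AM at 54 h), 1 (CHX), 29 (54 h against 32 h controls) and 2 (AM at 54 h against 32 h). AM at 54 h gave 3 calls median-centred and 3 as deposited, and the AM contrast with 32 h gave 0 as deposited. Quantile normalization gave 1 call from morula to blastocyst, and the mean of a gene's probes 3 from the 8-cell stage to the morula. That mean reversed Zfp148 at the 8-cell stage (0.58) and Zbtb20 from 32 to 54 h (-0.43). Classes by the 2-cell comparison gave 23 members, 16 maternal and 7 embryonic.

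Deviations of same-numbered arrays correlated above 0.1 in 22 of 84 stage pairs (median -0.015, different numbers -0.011) and 81 of 177 treatment pairs (0.076 and -0.033), not in every pair, so numbers were not taken to pair arrays; with a replicate block 8 members were called from the 8-cell stage to the morula and 1 with CHX, and 136 of 141 named results kept their call.

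Leaving out 1 array gave 19 to 26 calls for the 2-cell, 6 to 15 for the 4-cell, 23 to 27 for the 8-cell and 0 to 13 for the morula step, 0 to 3 from morula to blastocyst, 12 to 16 for 4-cell against fertilized egg and 2 to 3 for blastocyst against 8-cell. In treatments the ranges were 0 to 1 from 21 to 32 h, 4 to 6 from 32 to 43 h, 0 to 2 from 43 to 54 h, 16 to 19 from 32 to 54 h, 1 to 7 for AM at 54 h, 14 to 20 from 32 to 54 h with AM, 0 to 7 for AC at 43 h, 1 to 2 for CHX, 0 to 1 for each AM contrast between times, and 0 to 0 elsewhere. Without 21h-Control replicate 3, or for AM at 54 h against 43 h without 43h-Control replicate 2, 1 member was called in place of 0. The causes were not tested. No shares of all probes stand beside the counts in this section, which describe only how the calls of members moved.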
